A study of Mus musculus with 6 samples.

Results

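The interferon-stimulated genes are a set of 37 genes, given by name, that cells switch on when they sense interferon. All 37 were found by gene name among the 55291 rows of the deposited count table. The members were given by name rather than picked by a measured value. However, earlier results of these data were known, and attention to each wild-type library was part of the question from the start. They were followed in dorsal skin of mice at day 40, in 3 wild-type samples of strain C57BL/6 and 3 samples of strain B6.Cg-Fbn1Tsk/J, called Tsk here. Tsk is an allele of Fbn1, the gene of fibrillin 1, and the genotype label of these samples is Fbn1+/-. That notation commonly stands for the loss of 1 copy, but Tsk is known as a duplication inside the gene, so the samples are named here by their strain. The labels name no agent and no allele that both groups carry. The design compares skin gene expression between the genotypes. The samples are numbered 1 to 6, and whether each number is its own animal is not stated. The p-values therefore speak only of the scatter among these 6 samples, which may be technical.

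Interferons are secreted proteins made when cells detect foreign or misplaced nucleic acid. Type I interferon binds the receptor made of IFNAR1 and IFNAR2, and the kinases JAK1 and TYK2 pass the signal to a complex called ISGF3, which holds STAT2 and IRF9. ISGF3 binds the interferon-stimulated response element, a DNA motif in the promoters of many of these genes, and their products block viral replication, sense more nucleic acid or amplify the response. Skin keratinocytes, fibroblasts, endothelium and immune cells can all respond.

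The motif core, GAAA followed by any 2 bases and GAAA again, shows what many members share in sequence apart from their name. It was searched on both strands in the 250 bases before the RefSeq start of each gene (build GRCm38.p6, which has the mm10 coordinates), and overlapping matches count separately. Of the 27 members in the promoter table, 13 held a match (48.1%), against 936 of all 27025 genes in the table (3.46%). The last 200 bases before the start are printed 5′ to 3′ on the gene's strand for Irf7, Ifit3, Oas1a, Isg15, Oas3 and Ifit3b, with every base of a match in capitals (TTTC, any 2 bases and TTTC is the motif on the other strand). Irf7 is shown as the member in the table that stood highest in wild-type replicate 1 relative to the other 2 wild-type libraries, the next 4 as the highest of those with a match, and Ifit3b as the close neighbour of Ifit3.
Irf7: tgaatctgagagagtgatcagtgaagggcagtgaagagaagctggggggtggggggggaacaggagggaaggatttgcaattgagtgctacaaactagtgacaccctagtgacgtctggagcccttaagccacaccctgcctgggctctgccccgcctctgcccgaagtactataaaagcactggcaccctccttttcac
Ifit3: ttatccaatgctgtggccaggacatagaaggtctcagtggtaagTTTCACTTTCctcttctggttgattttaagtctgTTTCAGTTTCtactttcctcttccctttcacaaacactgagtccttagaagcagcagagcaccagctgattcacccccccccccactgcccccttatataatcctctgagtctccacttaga
Oas1a: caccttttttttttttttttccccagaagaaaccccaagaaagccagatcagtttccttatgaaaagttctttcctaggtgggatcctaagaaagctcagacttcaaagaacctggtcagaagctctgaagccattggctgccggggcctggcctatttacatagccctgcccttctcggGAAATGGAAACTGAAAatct
Isg15: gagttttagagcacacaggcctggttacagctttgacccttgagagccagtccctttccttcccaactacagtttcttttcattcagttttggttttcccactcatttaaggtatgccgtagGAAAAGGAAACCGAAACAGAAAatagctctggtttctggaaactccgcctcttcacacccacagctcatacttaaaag
Oas3: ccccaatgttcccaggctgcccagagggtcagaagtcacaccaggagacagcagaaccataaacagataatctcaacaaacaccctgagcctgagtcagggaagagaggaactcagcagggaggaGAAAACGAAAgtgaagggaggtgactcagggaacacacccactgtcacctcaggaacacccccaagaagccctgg
Ifit3b: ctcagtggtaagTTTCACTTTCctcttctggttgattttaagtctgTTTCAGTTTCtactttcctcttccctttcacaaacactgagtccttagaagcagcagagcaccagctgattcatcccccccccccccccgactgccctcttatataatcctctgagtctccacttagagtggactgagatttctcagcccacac
The windows are chr7:141266425-141266624 on the minus strand for Irf7, chr19:34583329-34583528 on the plus strand for Ifit3 and chr5:120907526-120907725 on the minus strand for Oas1a. Those of Isg15, Oas3 and Ifit3b are chr4:156200819-156201018 (minus strand), chr5:120777660-120777859 (minus strand) and chr19:34607757-34607956 (plus strand). Isg15 held 3 overlapping matches starting 78, 72 and 66 bases before the start, and Oas1a 2 at 20 and 14 bases. Ifit3 held 2 separate matches at 156 and 122 bases, and the same pair of 10-base matches recurs in Ifit3b at 188 and 154 bases. Oas3 held 1 match, and the letters of the core do not occur in the 250 bases searched before Irf7. The other members with a match were Ifit1, Rsad2, Bst2, Stat2, Gbp2, Gbp3, Gbp7 and Trim30a. Those without were Irf7, Herc6, Ifit2, Oasl1, Oasl2, Cmpk2, Ddx58, Ifih1, Irf9, Dtx3l, Ifi35, Ifi44, Xaf1 and Sp100. Not in the table were Usp18, Zbp1, Dhx58, Mx1, Mx2, Rtp4, Parp9, Parp14, Oas2 and Ifi27.

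Library totals ran from 17561271 to 19219622 counts, with wild-type replicate 1 the smallest. Fbn1, the gene of the Tsk allele, stood at 261, 351 and 296 CPM in wild type and at 1450, 2053 and 1781 CPM in Tsk, so the groups did not overlap for this gene. The summed level of 6 fibroblast genes averaged 9131 CPM in wild type and 26615 CPM in Tsk. What the Fbn1 level says about the number of gene copies was not tested. CPM here are read counts scaled to a common library size, with totals adjusted by TMM, a scaling that takes most genes as not changed between libraries. Wild-type replicate 1 stood apart from the other 2 wild-type libraries in tissue markers, with 131098 CPM of 7 skeletal muscle genes against 234892 and 206701, and 7047 CPM of 6 keratinocyte genes against 4550 and 5191. Chi-square per degree of freedom, which sets a pair of libraries against counting noise alone, was 55.1 and 41.0 for replicate 1 against replicates 2 and 3, 8.92 between replicates 2 and 3, and 37.0 to 78.6 between the Tsk libraries. The wild-type replicates 2 and 3 were thus the closest pair, and the Tsk pairs spanned the values of replicate 1 against the other wild-type libraries. Because most interferon-stimulated genes stood high in wild-type replicate 1, the results below are given with and without this library.

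No interferon-stimulated gene was called between Tsk and wild-type skin by edgeR's quasi-likelihood test over all genes (0 of 37, adjusted p under 0.05). Of all 19971 genes tested, 683 or 3.42% were called, 2.72% higher and 0.696% lower in Tsk. A count of 0 in 37 is near these shares and says little about the members. What most members did share was a high level in wild-type replicate 1. Among the wild-type libraries, Oas2, Dtx3l and Ifi35 were instead highest in replicate 3, and Gbp7 in replicate 2. Fitted log2 fold changes were below 0 (lower in Tsk) in 33 of 37 members, against 53.0% of all genes, but in 21 of 37 (against 21.6% of all genes) when library totals alone set the scale and in 22 of 37 (against 48.0%) without wild-type replicate 1. The median was -0.32 over the members and -0.03 over all genes, and -0.11 over the members without wild-type replicate 1, where it was 0.02 over all genes. At an unadjusted p under 0.05, 10 members were lower and 0 higher in Tsk, against 7.94% and 12.1% of all genes (20.1% in either direction). DESeq2 called 4 of 37 members, Isg15, Ifit3, Oas3 and Irf7, all lower, against 8.61% of all genes with an adjusted p in either direction and 2.41% lower, and limma-voom called 0. All 37 passed the filter on low counts in edgeR, with deposited counts from 21.1 to 1081 per library.

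Wild-type replicate 1 was the highest of the 3 wild-type libraries for 33 of 37 members, against 39.5% of all genes tested. It was the highest of all 6 libraries for 31 members, against 18.3% of all genes. When library totals alone set the scale, it was the highest of all 6 for 29 members, against 17.1% of all genes. On that scale it was the highest wild-type library for 36 members, but also for 63.7% of all genes. With TMM-adjusted totals, replicate 1 exceeded the highest of the other 5 libraries by more than 1.5 times for 13 members, against 1.21% of all genes. These 13 were Isg15, Usp18, Ifit1, Ifit2, Ifit3, Oas1a, Oas3, Oasl1, Rsad2, Cmpk2, Zbp1, Irf7 and Ifi44. The summed level of the 37 members was 647 CPM in wild-type replicate 1, 391 and 461 CPM in replicates 2 and 3, and 347, 442 and 441 CPM in Tsk replicates 4, 5 and 6. Thus the sum in wild-type replicate 2 lay within the Tsk range, and only replicates 1 and 3 lay above it.

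**Figure D1:**
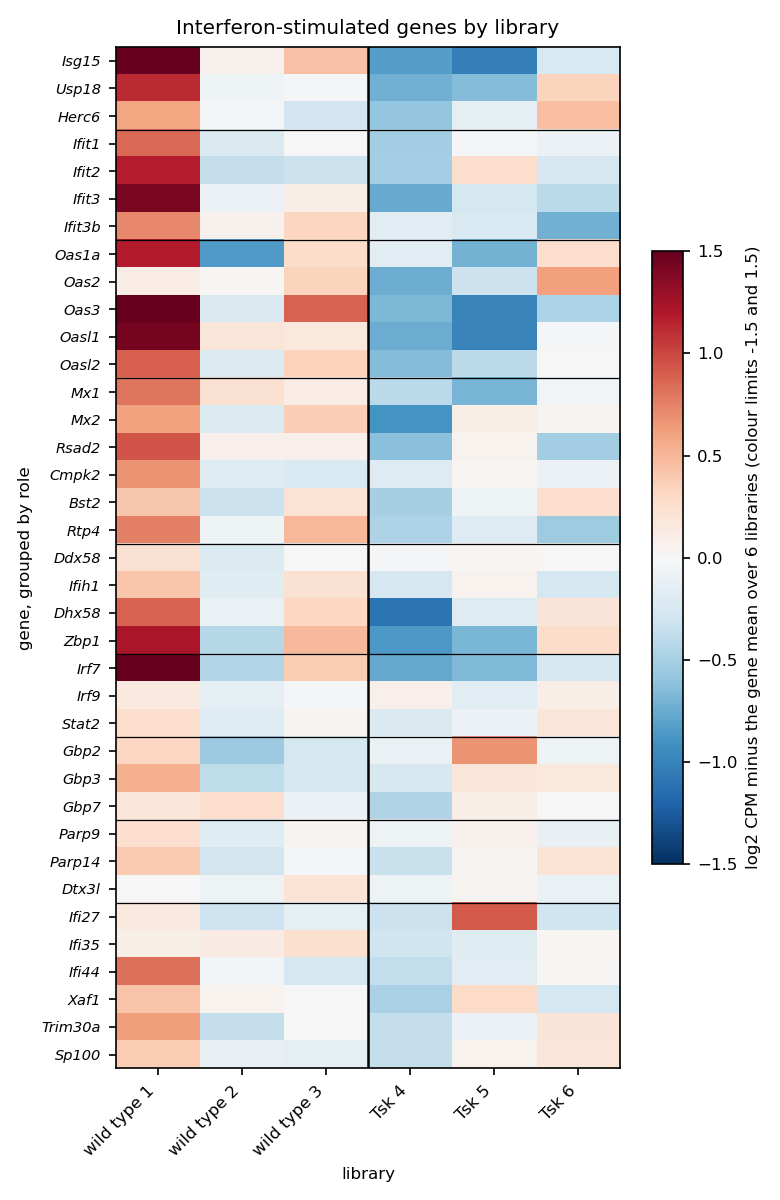
Log2 CPM of each of the 37 interferon-stimulated genes (rows, grouped by role) in each of the 6 libraries (columns), as the difference from the gene's mean over the 6 libraries, with colours limited at -1.5 and 1.5. Wild-type replicate 1 is the highest library in 31 of 37 rows, and Ifi27 and Gbp2 are highest in Tsk replicate 5.

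Within the wild-type group the libraries took the order 1, 3, 2 from high to low in 25 of 37 members, against 22.2% of all genes. Wild-type replicate 2 was the lowest of the 3 for 27 members, against 33.4%. Relative to the mean of the other 2 libraries of its group, on the log2(CPM + 0.5) scale, replicate 1 had a median difference of 0.67 over the members, replicate 2 of -0.49 and replicate 3 of -0.08. The same medians over all genes tested lay between 0.01 and 0.02. The Tsk libraries differed too, since replicate 4 was the lowest of all 6 libraries for 21 members, against 11.7% of all genes, and its median difference was -0.38, beside 0.11 for replicate 5 and 0.26 for replicate 6.

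**Figure D2:**
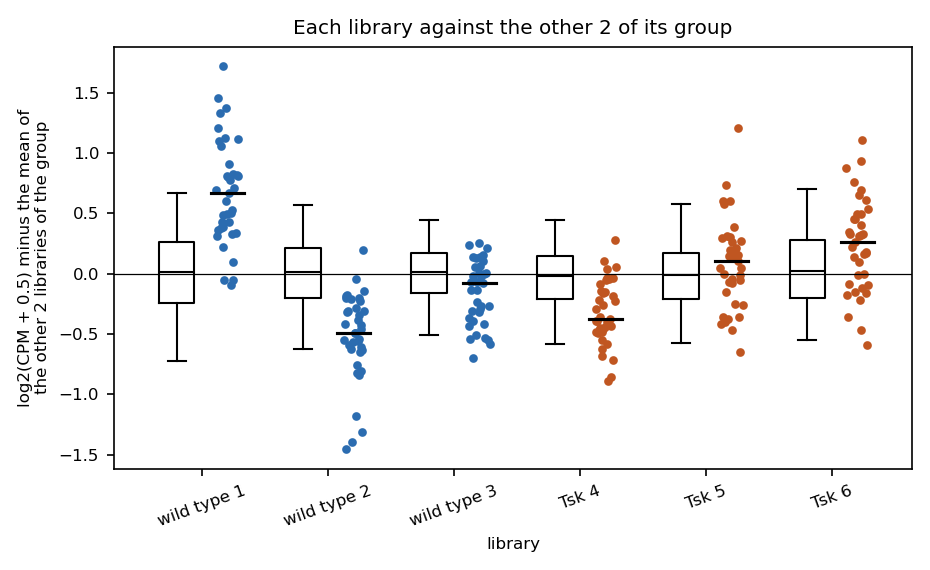
Difference of each library from the mean of the other 2 libraries of its group, in log2(CPM + 0.5). Boxes show all 19971 genes tested (median, quartiles, and whiskers from the 5th to the 95th percentile), points the 37 members and thick lines their medians, which run from -0.49 in wild-type replicate 2 to 0.67 in wild-type replicate 1.

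Among the transcription factors, the data of Irf7 showed the widest gap. IRF7 is itself induced by interferon and drives further interferon transcription. Irf7 lies at chr7:141262706-141266481 on the minus strand of mm10 and stood at 48.0, 10.7 and 18.9 CPM in wild-type replicates 1 to 3, and at 8.55, 9.16 and 12.3 CPM in Tsk replicates 4 to 6. Wild-type replicate 1 was 3.25 times the mean of the other 2 wild-type libraries, and wild-type replicate 2 lay inside the Tsk range. The log2 fold change was -1.37 ± 0.49 (SE, edgeR adjusted p = 0.175), and -0.54 ± 0.27 without wild-type replicate 1 (edgeR adjusted p = 0.267). Irf7 overlaps Phrf1 on the other strand, which ran from 44.8 to 52.1 CPM over the 6 libraries. Because the strand setting of the counting is not given in the sources used here, reads in the overlap cannot be assigned.

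Stat2 and Irf9 were nearly level. Stat2, the subunit that carries the activation domain, stood at 34.9, 25.3 and 29.9 CPM in wild type and 25.0, 27.4 and 33.1 CPM in Tsk, with overlapping groups and a fold change of -0.08 ± 0.16 on the log2 scale (edgeR adjusted p = 0.839). Irf9, the subunit that reads the motif, stood at 21.5, 17.62 and 19.2 CPM in wild type and 20.4, 17.3 and 20.7 CPM in Tsk. Its fold change was 0.00 ± 0.14, and the groups overlapped throughout. Irf9 also overlaps Rnf31 on the same strand.

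The nucleic acid sensors differed from each other in how far replicate 1 stood out. Ddx58, which encodes RIG-I, the sensor of RNA ends, stood at 23.6, 17.5 and 20 CPM in wild type and 19.7, 20.5 and 20 CPM in Tsk, a log2 fold change of -0.02 ± 0.14. Ifih1, which encodes the long double-stranded RNA sensor MDA5, stood at 24.9, 16.4 and 21.8 CPM in wild type against 15.7, 19.3 and 15.5 CPM in Tsk. Its groups overlapped and its log2 fold change was -0.32 ± 0.18. Zbp1, which senses Z-form nucleic acid and can start cell death, stood at 11.4, 3.63 and 6.83 CPM in wild type and 2.70, 3.04 and 5.93 CPM in Tsk. Both wild-type replicate 1 and replicate 3 exceeded every Tsk library, but replicate 2 did not, and the log2 fold change was -0.91 ± 0.44 (edgeR adjusted p = 0.296). Dhx58, the regulator LGP2 that lacks signalling domains, stood at 5.90, 2.98 and 3.98 CPM in wild type and 1.503, 2.81 and 3.67 CPM in Tsk, with overlapping groups.

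The IFIT proteins bind viral RNA and hinder its translation, and their genes sit side by side on chromosome 19. Ifit3 stood at 28.3, 9.98 and 11.4 CPM in wild type and 6.27, 8.88 and 8.05 CPM in Tsk. All 3 wild-type libraries lay above all 3 Tsk libraries, with replicate 1 far above the rest, and the log2 fold change was -1.10 ± 0.38 (edgeR adjusted p = 0.158). Without wild-type replicate 1 it was -0.44 ± 0.20 (edgeR adjusted p = 0.218). Ifit2 stood at 20.6, 7.06 and 7.27 CPM in wild type against 6.38, 10.8 and 7.62 CPM in Tsk. Its fold change was -0.49 ± 0.42 with all libraries and 0.23 ± 0.24 without wild-type replicate 1, so its sign rested on that library. Ifit1 behaved alike in wild type, at 13.5, 6.41 and 7.45 CPM, with 5.18 to 7.39 CPM in Tsk. Ifit3b, with a range of 5.51 to 8.68 CPM in wild type and 3.20 to 4.72 CPM in Tsk, did not overlap between groups and stood at -0.75 ± 0.24. Counts of Ifit1, Ifit3 and Ifit3b were not whole numbers in any library, and the split of reads between these relatives is uncertain. Such counts are not particular to this family, since 30 of 37 members had them in at least 1 library, among them Isg15, Oas3, Mx1 and Rsad2.

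OAS enzymes make 2′-5′ oligoadenylate, which activates the RNA-cutting enzyme RNase L, and the OAS-like proteins act without or beside that product. Oas3 had the largest fold change of all members. It stood at 14.2, 4.34 and 9.32 CPM in wild type and 3.16, 2.52 and 3.62 CPM in Tsk, and the groups did not overlap. Its log2 fold change was -1.59 ± 0.39 (SE, edgeR adjusted p = 0.0671), and -1.11 ± 0.34 without wild-type replicate 1 (edgeR adjusted p = 0.0867). Without wild-type replicate 2 Oas3 passed at -1.92 (edgeR adjusted p = 0.0194), the only call of a member in the 6 fits that left out a library, where 0.334% of all genes passed as lower in that fit. Oasl1, which in mice restrains the translation of Irf7, stood at 6.34, 2.66 and 2.61 CPM in wild type and 1.4, 1.17 and 2.31 CPM in Tsk, with no overlap and a log2 fold change of -1.26 ± 0.42. Oasl2 stood at -0.74 ± 0.28 and Oas1a at -0.59 ± 0.46, where wild-type replicate 1 held 9.01 CPM and the other 5 libraries 2.20 to 4.78 CPM. Oas2 went the other way in single libraries, at 13.02, 12.1 and 15.1 CPM in wild type and 7.15, 9.58 and 18.4 CPM in Tsk, so its highest library was Tsk replicate 6.

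**Figure D3:**
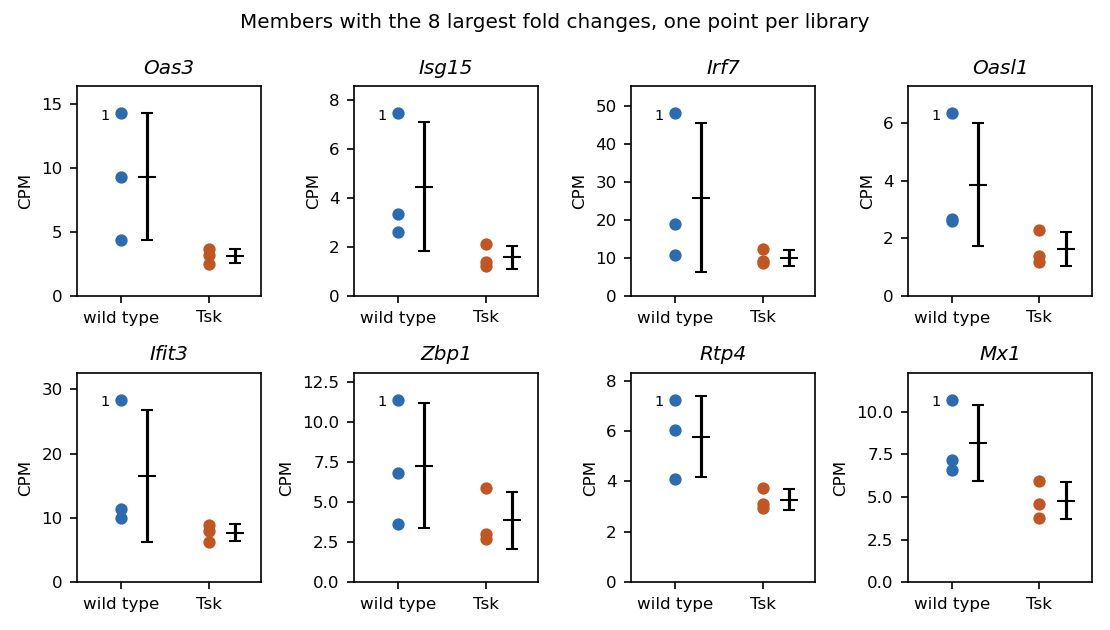
CPM in each library for the 8 members with the largest fold changes at a mean of at least 1 CPM, with the group mean and SD (n = 3 each) beside the points and wild-type replicate 1 marked 1. Replicate 1 is the highest point in all 8 panels, from 6.34 CPM for Oasl1 to 48.0 CPM for Irf7.

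ISG15 is a ubiquitin-like protein that is joined to other proteins or secreted, and USP18 removes it and also dampens the type I receptor. Isg15 stood at 7.46, 2.59 and 3.35 CPM in wild type and 1.4, 1.22 and 2.12 CPM in Tsk. The groups did not overlap, and the log2 fold change was -1.505 ± 0.42 (edgeR adjusted p = 0.0937), or -0.89 ± 0.33 without wild-type replicate 1 (edgeR adjusted p = 0.142). Usp18 stood at 7.96, 3.50 and 3.60 CPM in wild type and 2.23, 2.34 and 4.61 CPM in Tsk, so that Tsk replicate 6 lay above wild-type replicates 2 and 3. Herc6, the mouse ligase for ISG15, had overlapping groups and a log2 fold change of -0.17 ± 0.31.

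The other antiviral effectors were lower in Tsk on average without passing the test. Rtp4, a receptor-trafficking protein that in mice also restrains the interferon response, stood at 7.23, 4.08 and 6.03 CPM in wild type and 3.11, 3.74 and 2.96 CPM in Tsk. Its log2 fold change was -0.82 ± 0.24 (edgeR adjusted p = 0.106) and its groups did not overlap. The span of Rtp4, chr16:23520291-23614222, overlaps Masp1 on the other strand and Gm45338 on the same strand. Its counts were not whole numbers in 5 libraries, and reads in the overlaps cannot be assigned. Mx1, a dynamin-like GTPase against influenza virus that is defective in most laboratory mouse strains and is annotated here as a polymorphic pseudogene, stood at 10.7, 7.19 and 6.58 CPM in wild type and 4.61, 3.79 and 5.93 CPM in Tsk. Wild type and Tsk did not overlap for Mx1, at -0.77 ± 0.25. Rsad2, which encodes viperin, and its divergent neighbour Cmpk2, a nucleotide kinase, differed in wild-type replicate 1 from the other 2 wild-type libraries by a like factor, at 14.4 against 7.91 and 7.89 CPM and at 8.01 against 4.41 and 4.29 CPM. In Tsk, Rsad2 ran from 4.87 to 7.76 CPM, below every wild-type library, while Cmpk2 ran from 4.41 to 5.14 CPM and overlapped wild type. Mx2 and Bst2, the virus-tethering protein tetherin, had overlapping groups, at -0.48 ± 0.33 and -0.21 ± 0.25.

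The genes of guanylate-binding proteins, GTPases that attack vacuoles holding pathogens and respond chiefly to interferon gamma, stood on both sides of 0. Gbp2 stood at 11.02, 6.09 and 7.45 CPM in wild type and 8.35, 14.3 and 8.42 CPM in Tsk, with its highest library in Tsk and a log2 fold change of 0.33 ± 0.28. Without wild-type replicate 1 it was 0.63 ± 0.27 (edgeR adjusted p = 0.205). Gbp3 and Gbp7 stood at 0.02 ± 0.26 and -0.21 ± 0.17. Most of these counts were not whole numbers either, and the split of reads within this family is uncertain.

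Parp14, Dtx3l and Sp100 are among the 8 members with the highest mean CPM, a scale not adjusted for length, and their groups overlapped. Parp14, an ADP-ribosyltransferase, stood at 57.3, 36.0 and 43.3 CPM in wild type and 34.6, 45.02 and 50.4 CPM in Tsk, a log2 fold change of -0.07 ± 0.20. Dtx3l, a ubiquitin ligase that acts in a complex with PARP9, stood at 32.3, 30.5 and 37.1 CPM in wild type and 30.5, 33.1 and 29.9 CPM in Tsk, at -0.09 ± 0.12. Parp9 also stood at -0.09, with an SE of 0.15. Parp9 and Dtx3l start head to head on chromosome 16 and their spans overlap, so the overlapping reads cannot be assigned. Sp100, a component of nuclear PML bodies, stood at 29.7, 21.2 and 20.8 CPM in wild type and 17.9, 23.7 and 25.9 CPM in Tsk, at -0.09 ± 0.19.

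Ifi27, a mitochondrial and nuclear membrane protein induced by interferon, was set apart by Tsk replicate 5. It stood at 29.5, 21.5 and 24.2 CPM in wild type and 21.4, 50.5 and 21.7 CPM in Tsk. The log2 fold change of 0.31 ± 0.33 became -0.22 without Tsk replicate 5. In the same library 5 adipocyte genes summed to 812 CPM, against 175 and 123 CPM in Tsk replicates 4 and 6. There, 5 endothelial genes summed to 351 CPM, against 254 and 211 CPM in Tsk replicates 4 and 6. The part of fat or endothelium in the Ifi27 level was not tested. In bulk skin, more cells of a type and more RNA per cell cannot be told apart. Ifi35, a partner of the protein NMI, had groups that did not overlap although wild-type replicate 1 did not lead, at 13.9, 14.2 and 15.5 CPM in wild type and 10.6, 11.5 and 13.3 CPM in Tsk (-0.30 ± 0.14). The last members, Ifi44, Xaf1 and Trim30a, had overlapping groups and log2 fold changes of -0.43 ± 0.32, -0.29 ± 0.24 and -0.22 ± 0.26.

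In all, the groups did not overlap for 9 members, each with Tsk on the low side, against 10.6% of all genes, and 0 members were separated with Tsk on the high side, against 14.1%. These were Isg15, Ifit3, Ifit3b, Oas3, Oasl1, Mx1, Rsad2, Rtp4 and Ifi35. The count was also 9 without wild-type replicate 1, but the background was then 22.5%. Another 3 members were separated with Tsk on the high side, against 22.0%. With that library left out, 0 of 37 members passed, against 6.72% of all genes. There, 22 of 37 members had a fold change below 0, against 48.0% of all genes, and 3 were lower and 1 higher at an unadjusted p under 0.05, against 10.2% and 13.8%. Oas3, Isg15, Oasl1, Rtp4, Irf7, Ifit3b and Mx1 then stood between -1.11 and -0.50, while 15 members stood above 0. The other values below 0 were -0.44 for Ifit3, -0.40 for Zbp1, -0.40 for Oasl2, -0.38 for Rsad2, -0.36 for Dhx58, -0.30 for Ifi35, -0.27 for Mx2, -0.19 for Oas2, -0.19 for Usp18, -0.16 for Ifih1, -0.16 for Gbp7, -0.11 for Xaf1, -0.091 for Dtx3l, -0.062 for Ifit1 and -0.021 for Bst2. Zbp1, Oasl2 and Ifih1 were thus among those whose value moved by more than 1.5 times. The fold change of Ifit2, Oas1a, Herc6, Cmpk2, Ddx58, Stat2, Parp9, Parp14, Ifi44, Trim30a and Sp100 turned from below to above 0, and none of these passed the test in either fit.

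**Figure D4:**
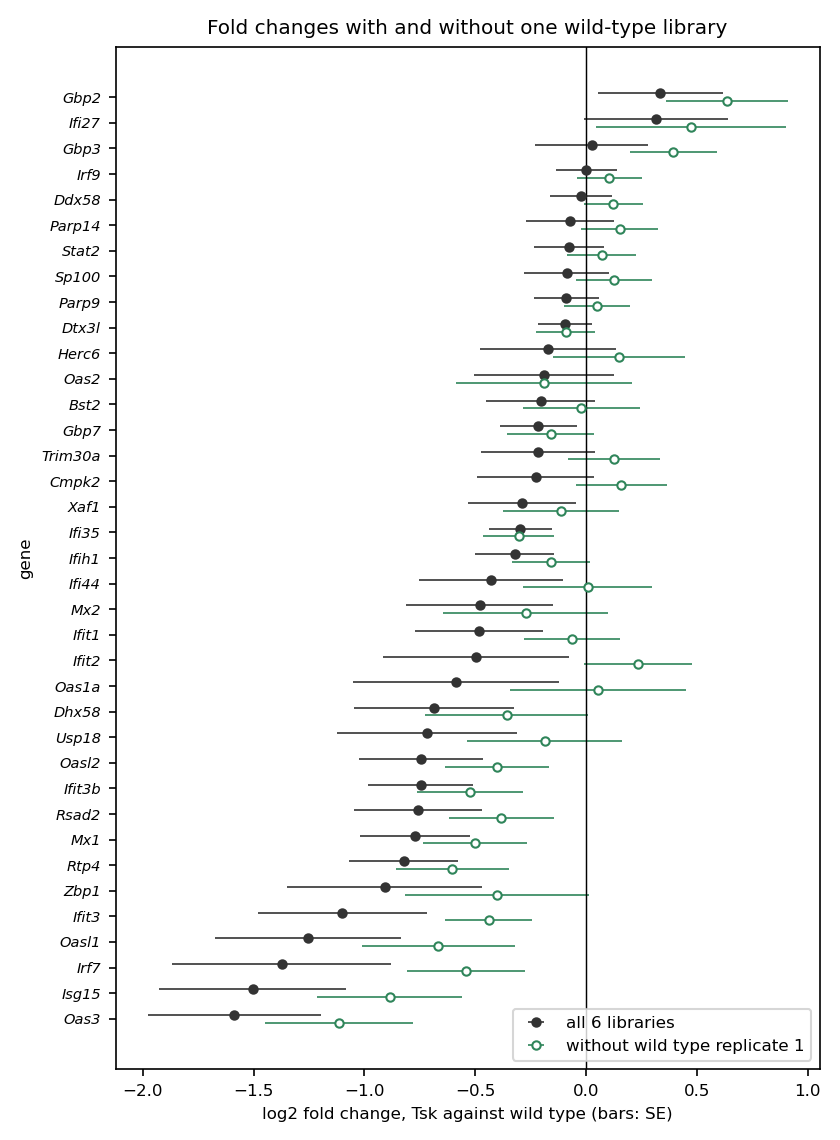
Log2 fold change of each member, Tsk against wild type, with its SE, from all 6 libraries (filled) and without wild-type replicate 1 (open), ordered by the value from all libraries. Oas3 lies lowest at -1.59 and -1.11, and 15 of 37 open points lie above 0 against 4 of 37 filled points.

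Levels between genes were compared only per kilobase of merged exons in GENCODE M21. On that scale the mean over 6 libraries ran from 0.34 CPM per kilobase for Ifi44 to 19.2 for Ifi27, with a median of 2.82. Bst2 (8.61), Ifi35 (7.62), Ifit3 (6.96) and Dtx3l (5.63) followed Ifi27. In wild-type replicate 1 alone Ifit3 reached 16.2 and Irf7 12.7 CPM per kilobase.

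The rest of the pathway was followed in 76 genes, and 0 of the 65 tested were called by edgeR, against 3.42% of all genes. At an unadjusted p under 0.05 there were 13 of 65, against 20.1% of all genes, which is about the same share. The median log2 fold change was 0.04, beside -0.03 over all genes. DESeq2 called 7 of the 65, 3 higher and 4 lower, against 8.61% of all genes. None of the 9 interferon ligand genes chosen for the list passed the filter on low counts, and other ligand genes were not followed. Ifnb1, Ifne, Ifng, Ifna4, Ifna2, Ifnl2 and Ifnl3 had 0 counts in all 6 libraries, and Ifnk and Ifnz held at most 0.194 CPM in any library. The receptor subunit genes Ifnar1 and Ifngr1 had all Tsk levels above all wild-type levels (2 of 6 receptor genes, against 14.1% of all genes), at 29.6 to 37.8 against 23.8 to 28.5 CPM and 62.9 to 70.9 against 50.5 to 53.9 CPM, without passing the test (0.40 and 0.35 on the log2 scale, edgeR adjusted p = 0.147 and 0.130). Of the other receptor genes, Ifnar2 and Il10rb stood at 0.44 and 0.80, and Ifngr2 and Ifnlr1 below 0 at -0.27 and -0.23, with overlapping groups. Jak1, a kinase bound to the receptors, ran from 195 to 247 CPM. Mavs, the adaptor of the RNA sensors, stood at 0.11, Sting1, the adaptor of the DNA sensor cGAS, at 0.62 ± 0.25, and Irf3, which starts interferon transcription, at 0.09 ± 0.12. Samhd1, a nucleotide hydrolase, stood at 0.60 ± 0.26 and H2-D1, a class I heavy chain, at 0.16 ± 0.19.

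Of 6 further pathway genes, Socs1, Socs3 and Ptpn2 had a log2 fold change below 0, and Pias1, Isg20 and Adar had one above 0. Of the 10 class I presentation genes, 4 were below and 6 above. Ptpn2 stood at -0.54 ± 0.14 (edgeR adjusted p = 0.0693). Socs3, which blocks receptor-bound JAK kinases, stood at 34.6, 55.7 and 64.5 CPM in wild type and 25.7, 19.5 and 32.1 CPM in Tsk, at -1.0006 ± 0.25 (edgeR adjusted p = 0.0727). Here wild-type replicate 1 was the lowest wild-type library, and without it Socs3 fell by 1.196 on the log2 scale (edgeR adjusted p = 0.0189). Cxcl10, an interferon-induced chemokine, stood at 4.79, 1.30 and 1.68 CPM in wild type and 1.04, 0.795 and 0.753 CPM in Tsk (-1.60, edgeR adjusted p = 0.124). Nlrc5, the activator of class I genes, had separated groups at -0.59 and Tapbp, a loader of class I peptides, at 0.58, and neither passed. Over the 65 tested pathway genes, wild-type replicate 1 was the highest wild-type library for 49 (75.4%), against 39.5% of all genes. It was the highest of all 6 libraries for 26 (40%), against 18.3% of all genes. It exceeded the highest other library by more than 1.5 times for 3 of them (4.62%), against 1.21% of all genes.

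Markers of other cells that differ between the wild-type libraries are given beside this pattern, and their part in it was not tested. Wild-type replicate 1 had the highest level of all 6 libraries for 3 of 6 keratinocyte genes and the lowest for all 6 fibroblast genes, whose sum was 6179 CPM there, 10341 and 10874 CPM in the other wild-type libraries and 18265 to 41972 CPM in Tsk. Skeletal muscle genes summed to 103427 to 123704 CPM in Tsk. Macrophage and monocyte genes summed to 268, 172 and 245 CPM in wild type and 260, 344 and 628 CPM in Tsk. Of its 7 genes, 4 took the order 1, 3, 2 in wild type (Adgre1, Cd68, Ccr2 and Lyz2), while Mrc1 and Csf1r were highest in replicate 3, and all 7 were highest among Tsk libraries in replicate 6. Ccr2, the receptor of inflammatory monocytes, had the widest gap, at 27.9, 5.25 and 11.3 CPM, with 8.81 to 18.0 CPM in Tsk. Markers of plasmacytoid dendritic cells, a rich source of type I interferon, were low except Cox6a2, which muscle also expresses. Ccr9 ran from 1.56 to 1.84 CPM, and Siglech was lowest in wild-type replicate 1 at 0.556 CPM. Neutrophil genes were scarce. Their sum was 11.4, 8.03 and 10.6 CPM in wild type and 4.87, 6.69 and 7.76 CPM in Tsk, with Tsk replicate 4 lowest. Cxcr2 and Csf3r took the order 1, 3, 2 in wild type, as did the sum. In contrast, S100a9 was lowest in wild-type replicate 1 (0.556, 1.04 and 0.745 CPM), and S100a8 was highest in wild-type replicate 3. S100a9, an antimicrobial protein of neutrophils, was separated between groups at -2.21 ± 0.57 (edgeR adjusted p = 0.0722). S100a8, its partner, stood at 0.648 to 1.06 CPM in wild type and at most 0.0471 CPM in Tsk, did not pass the filter with all libraries, and passed the test in 5 of the 6 fits that left out a library. The defining marker Ly6g had 0 counts in every library. T and natural killer cell genes summed to 13.8 to 21.3 CPM, B cell genes to 1.84 to 2.80 CPM and Langerhans and dendritic cell genes to 32.1 to 85.8 CPM. Endothelial genes summed to 140 to 188 CPM in wild type and 211 to 351 CPM in Tsk. Of the marker genes, Lor, Tek, Vwf and Lep passed the test, each higher in Tsk.

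**Figure D5:**
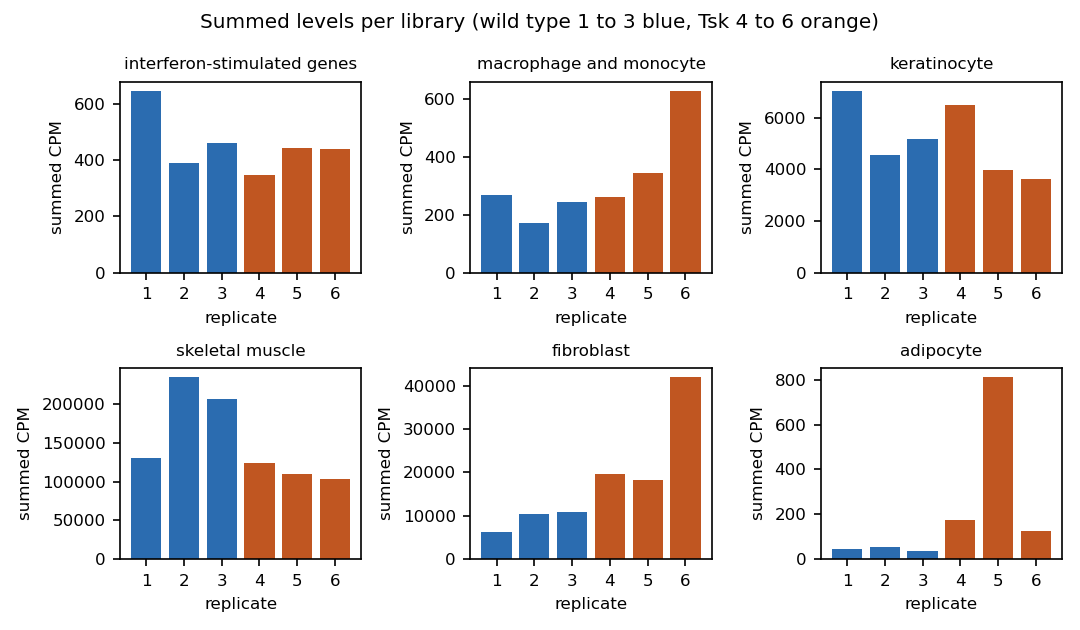
Summed CPM of the 37 interferon-stimulated genes and of 5 marker lists in each library, with wild-type replicates 1 to 3 in blue and Tsk replicates 4 to 6 in orange, and each vertical axis starting at 0. The interferon-stimulated genes peak in wild-type replicate 1 at 647 CPM, where skeletal muscle genes are at 131098 CPM and fibroblast genes at their lowest, 6179 CPM.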

How the data were processed

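Whole dorsal skin was profiled by RNA sequencing, with ribosomal RNA removed and a stranded dUTP kit, per the labels' protocols. The submitters' processing notes name bcl2fastq 2.19.1.403, STAR, Partek 7.0 and the mm10 build. Neither the annotation nor how reads were counted and with which strand setting is stated there. The authors deposited estimated counts per gene, which for 30 of 37 members were not whole numbers in at least 1 library, and CPM values per library. The expected counts were rounded before testing. Symbols and spans of 36 of 37 members matched GENCODE M21 after taking the deposited stop as 1 base past the end, and ends are printed so corrected.

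The sample labels gave both groups. The test was the robust quasi-likelihood F-test of edgeR 4.0.16 (R 4.3.3) with TMM factors, and the default filter (minimum count 10, minimum total 15) kept 19971 genes. A gene was called at a Benjamini-Hochberg adjusted p-value under 0.05 over all of them. SE is the fold change divided by the square root of F, and CPM in the text are scaled to TMM-adjusted totals. Alternatives were RLE and library-total scaling, no filter, a minimum count of 50, DESeq2 1.42.0, limma-voom and limma-trend (limma 3.58.1) on log2 of the deposited CPM plus 1 or 0.1, and leaving out each library. The edgeR step was also run on simulated data with planted changes, and the share of these that it recovered is not reported here. Of the pathway genes, 2 were matched through RefSeq synonyms. The members were given, and the lists and settings were chosen, with earlier results of these data known. Values by library are given for members past the threshold, the 8 largest fold changes at a mean of at least 1 CPM, the 8 highest mean CPM and further members named after their values were seen. No molecular identifiers were named, so errors from counting reads understate those of molecules.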

Additional observations from a re-analysis of the deposited data

How the results depend on the processing

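The count of 0 interferon-stimulated genes past the threshold was the same in all fits except DESeq2, with 4, and the fit without wild-type replicate 2, with 1, so leaving out a library gave 0 to 1. Over all genes the count was 683, with 1791 under library totals, 1157 without a filter, 1586 in DESeq2, 1871 and 1860 in limma-trend on the deposited CPM plus 1 and plus 0.1, and 63 to 1381 with a library left out (63 without wild-type replicate 3, 328 without wild-type replicate 2, 1381 without wild-type replicate 1, 402 without Tsk replicate 5 and 388 without Tsk replicate 6). Pathway counts were 0, with 4 under library totals and in both limma-trend fits, 1 without a filter, 7 in DESeq2 and 0 to 2 with a library left out. The cause of these differences was not tested. Of 514 alternative values for single members, 450 kept direction and side of the threshold, 5 passed and 59 changed sign, none of them past the threshold.

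Library totals moved the median of all genes by 0.28 (log2), and the deposited CPM by 0.23 and 0.27. On these scales Herc6 stood at 0.084, 0.080 and 0.090, Cmpk2 at 0.016, 0.083 and 0.11, Bst2 at 0.054, 0.062 and 0.072, Ddx58 at 0.24, 0.25 and 0.27, Stat2 at 0.19, 0.20 and 0.20, Gbp7 at 0.065, 0.049 and 0.050, Parp9 at 0.17, 0.19 and 0.20, Parp14 at 0.18, 0.21 and 0.22, Dtx3l at 0.18, 0.18 and 0.19, Trim30a at 0.028, 0.094 and 0.11, Sp100 at 0.17, 0.19 and 0.19, and Oas2 at 0.093 under library totals. Irf9 stood at -0.0023 in limma-voom. With a library left out, values that changed sign ran from -0.49 to 0.15 for Herc6, -0.75 to 0.23 for Ifit2, -0.95 to 0.052 for Oas1a, -0.68 to 0.063 for Oas2, -0.38 to 0.16 for Cmpk2, -0.11 to 0.12 for Ddx58, -0.057 to 0.10 for Irf9, -0.20 to 0.070 for Stat2, -0.14 to 0.39 for Gbp3, -0.19 to 0.048 for Parp9, -0.21 to 0.15 for Parp14, -0.22 to 0.53 for Ifi27, -0.62 to 0.0068 for Ifi44, -0.41 to 0.13 for Trim30a and -0.20 to 0.12 for Sp100. No paired analysis was possible because the groups share no replicate number.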

Other observations

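Wild-type replicate 1 also led other genes. Of the 30 genes at a mean of at least 2 CPM that exceeded their highest other library by the largest factor in wild-type replicate 1, a list drawn up after the values were seen, 8 were among the 37 interferon-stimulated genes and 7 were replication-dependent histone genes. Slfn4, a Schlafen gene of myeloid cells, led the list with 37.6 CPM there, 11.1 and 12.8 CPM in wild-type replicates 2 and 3, and 1.24, 0.608 and 1.41 CPM in Tsk. Slfn4 passed the test with all libraries (-4.24 ± 0.57, edgeR adjusted p = 0.0123) and without wild-type replicate 1 (-3.43 ± 0.31, edgeR adjusted p = 0.00477). Ifi209, of the interferon-inducible Ifi200 family, stood at 14.1 CPM in wild-type replicate 1 and at 2.43 to 4.97 CPM in the other 5 libraries. The myeloid membrane gene Ms4a4c stood at 7.68, 1.49 and 2.80 CPM in wild type and 0.327 to 1.13 CPM in Tsk. The histone gene H3c1 stood at 8.29 CPM there and 1.96 to 3.15 CPM elsewhere, and Ect2, which acts in cell division, at 9.68 CPM against 3.44 to 4.91 CPM. Histone genes are near-identical copies, so their counts cannot be assigned to single genes with certainty.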
